A study of Mus musculus with 8 samples.

Results

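Defects of enamel arise from many genes besides those of the enamel matrix, its proteases and the basal lamina, and 7 such genes were followed here in first molars of wild-type and Wdr72 knockout mice: Slc13a5, Acp4, Adgrf4, Cnnm4, Fam83h, Relt and Porcn. They were taken by name from the deposited table, 7 of 54532 genes, and all 7 had enough reads to be among the 16205 genes tested. The study compared gene expression at the maturation stage, when enamel hardens, in molars with and without WDR72, a protein whose loss leaves enamel undermineralised. The 4 wild-type libraries (WT 2, 3, 4 and 5) came from C57BL/6 mice. The 4 wdr72-/- libraries (KO 1, 3, 4 and 5) carry the same strain label and came from a Wdr72 knockout colony obtained from a mouse repository. No treatment is given. The age label reads postnatal day 12 and the dissection protocol day 13. Pulp was taken out and the remaining molar was homogenised whole, so the libraries were not of sorted cells, although the cell type label names ameloblasts. The labels do not say whether a library was 1 pup or a pool, and p-values then measure only the spread between these libraries, which may be technical.

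The genes do different jobs. SLC13A5 carries citrate with sodium into cells, CNNM4 moves magnesium, ACP4 is an acid phosphatase, and ADGRF4 (also called GPR115) and RELT are receptors at the cell surface, of the adhesion G protein-coupled and the tumour necrosis factor receptor families. FAM83H is a cytoplasmic scaffold that binds casein kinase 1 and keratin filaments, and PORCN is the enzyme of the endoplasmic reticulum that attaches a fatty acid to Wnt proteins before they are secreted. In people, variants of FAM83H, ACP4 and RELT cause amelogenesis imperfecta, and those of SLC13A5 and CNNM4 cause enamel defects together with epilepsy or with loss of vision. PORCN underlies focal dermal hypoplasia, in which teeth can be affected, and loss of ADGRF4 in mice leaves enamel poorly mineralised.

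The libraries held 17084475 to 21887462 counted reads. All 12 ameloblast markers had reads in these libraries, and their summed level was 61430 to 105400 CPM for WT and 66550 to 94570 CPM for KO (CPM, counts per 1000000 reads of the scaled library). The markers listed for pulp mesenchyme summed to 31130 to 59290 CPM for WT and 45460 to 67010 CPM for KO. Most of that sum was 2 collagen genes, Col1a1 (means 20860 CPM for WT and 29910 CPM for KO) and Col1a2 (14530 and 20420 CPM). Others of the list were far lower, such as Col6a1 and Pdgfra with means of 129 and 141 CPM for WT. Which cells these reads came from was not tested. In whole tissue, fewer cells of a type and less RNA per cell cannot be told apart. Wdr72 itself had 173, 245, 327 and 227 CPM in WT 2, 3, 4 and 5 and 102, 37.8, 24.9 and 15.8 CPM in KO 1, 3, 4 and 5, lower in each KO library than in any WT library; which part of the gene was deleted is not given in the sources used here. Xist ranged between 251 and 839 CPM for WT and between 177 and 356 CPM for KO, and summed Y-linked genes between 2.82 and 229 CPM and between 77.6 and 195 CPM. Reads of Xist and of Y-linked genes occurred together within each library. WT 3 had 839 CPM of Xist and 2.82 CPM of Y-linked genes. In every other library Xist was at least 177 CPM and the Y-linked sum at least 61.2 CPM. Whether a library held material of both sexes, and so of more than 1 pup, was not tested.

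The promoters of these genes differ widely in CpG content, and 3 are shown to make that range visible. RefSeq promoter windows on GRCm38.p6 were matched for 5 of the 7 genes. The first 100 bases before the start are printed 5′ to 3′ for the matched gene with the fewest CpG (Adgrf4, chr17:42692285-42692384, minus strand), the one with the most (Cnnm4, chr1:36471497-36471596, plus strand) and the one with the largest difference between KO and WT (Relt, chr7:100863414-100863513, minus strand). Capitals mark each CG, which reads the same on both strands.
Adgrf4: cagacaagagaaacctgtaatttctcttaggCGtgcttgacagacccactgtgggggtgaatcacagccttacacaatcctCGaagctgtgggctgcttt
Cnnm4: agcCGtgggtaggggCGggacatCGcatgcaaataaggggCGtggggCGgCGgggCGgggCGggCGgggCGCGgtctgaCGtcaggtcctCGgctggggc
Relt: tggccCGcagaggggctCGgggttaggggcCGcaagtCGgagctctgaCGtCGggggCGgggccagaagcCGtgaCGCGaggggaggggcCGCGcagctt

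Adgrf4 has 2 CG in these bases, Cnnm4 13 and Relt 12, and Acp4 has 2. Slc13a5 has 2 listed starts, with 8 and 10. Of all 32851 promoter windows, 79.3% have at least 1 CG in the same 100 bases, 62.0% have at least 2, 12.1% at least 12 and 9.45% at least 13. Over the whole window of 250 bases before to 50 after the start, the count was 4 for Adgrf4, 7 for Acp4, 17 and 25 for Slc13a5, 30 for Relt and 42 for Cnnm4, with a median of 7 over all windows.

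Levels of different genes are compared here per length, as CPM per kb of gene length. In WT the order was Acp4 (188 ± 35.8), Slc13a5 (168 ± 38.6), Adgrf4 (120 ± 61.5), Cnnm4 (28.8 ± 6.45), Fam83h (16.9 ± 1.27), Relt (12.1 ± 3.53) and Porcn (4.65 ± 0.964; SD, n = 4 each). The ranges of the first 3 overlapped, so their order is not resolved. A gap followed: Adgrf4 was 4.16 times Cnnm4, and their libraries did not overlap. Cnnm4 stood above Fam83h in each WT library, Fam83h and Relt overlapped, and Porcn lay below Relt in each. In KO the order was the same, at 203 ± 52.1, 143 ± 14.6, 121 ± 18.6, 25.1 ± 4.996, 17.4 ± 1.59, 16.6 ± 2.45 and 5.34 ± 0.576 CPM per kb, with the same neighbours overlapping. By this measure Acp4, Slc13a5 and Adgrf4 exceeded 99.0%, 98.7% and 98.2% of the genes tested, Cnnm4 90%, Fam83h 83.4%, Relt 80.0% and Porcn 54.5%.

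No family was compared for Porcn. Of the other genes, each except Relt led its own family in level per length. Slc13a5 held 99.5% ± 0.0958 of the summed level of the 5 Slc13 genes in WT, Slc13a2 coming next at 0.636 CPM per kb, and Slc13a1 had no read. Adgrf4 held 94.6% ± 2.20 of the 5 Adgrf genes, with Adgrf1, Adgrf2 and Adgrf3 at 11 to 36 reads over all libraries. Acp4 held 71.8% ± 3.12 of 6 acid phosphatases, and Acp5, the phosphatase of osteoclasts, came next at 36.1 CPM per kb. Cnnm4 and Cnnm2 were close, at 28.8 and 24 CPM per kb, as were Fam83h and Fam83g, at 16.9 and 12.9. Relt, at 12.1 CPM per kb, lay below its relative Rell1 at 37.8.

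**Figure D1:**
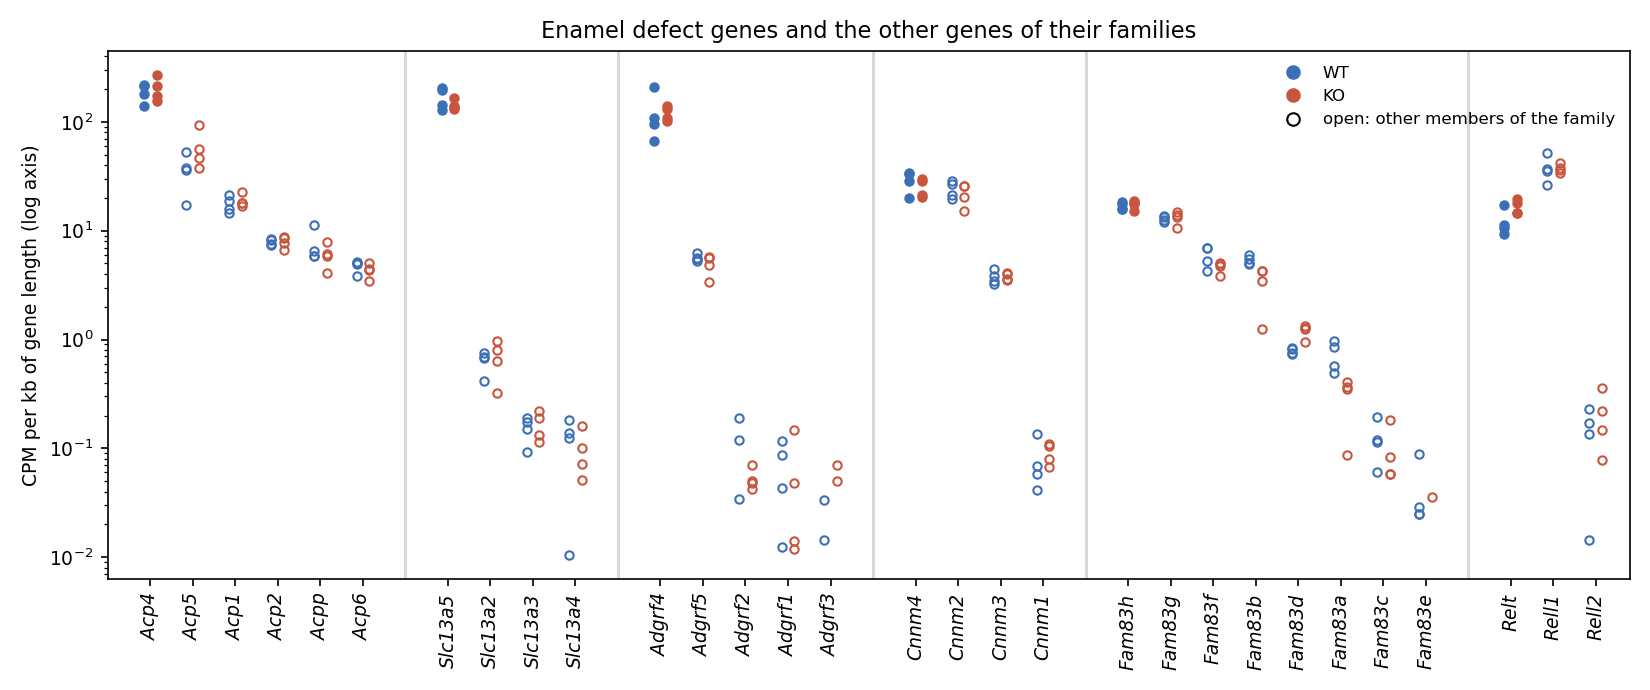
Level in CPM per kb of gene length (log axis) of 6 genes of enamel defects (filled) and of the other genes of their families (open), 1 point per library, WT in blue and KO in red; libraries at 0 are not drawn. In WT, Slc13a5 stands 264 times and Adgrf4 21.3 times above the next gene of the family, while Cnnm4 and Fam83h have a neighbour of similar level and Relt lies below Rell1.

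None of the 7 genes passed the test of KO against WT over all genes (edgeR quasi-likelihood test, two-sided, adjusted p under 0.05), where 0.0309% of all genes did. At an unadjusted p under 0.05 there was 1 of 7, Relt, which is 14.3% against 15.7% of all genes tested, so the share of the 7 genes is near that of any genes. In none of the 7 did the KO libraries lie apart from the WT libraries, which was the case for 10.9% of all genes. The median log2 fold change was 0.040 over the 7 genes and 0.021 over all genes. DESeq2 called 0 of 7 (2.86% of its genes) and limma voom with quality weights 1 of 7, Relt (6.62%). Without KO 1, which kept the most Wdr72, and KO 5, to which voom gave the lowest weight, the count in edgeR was 0 of 7 at an adjusted and at an unadjusted p under 0.05. Of all genes, 11 passed the adjusted threshold in that fit, and their share at an unadjusted p is not given here. On these fewer libraries Relt had a log2 fold change of 0.49 (SE 0.26), against 0.46 (SE 0.18) on all of them.

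**Figure D2:**
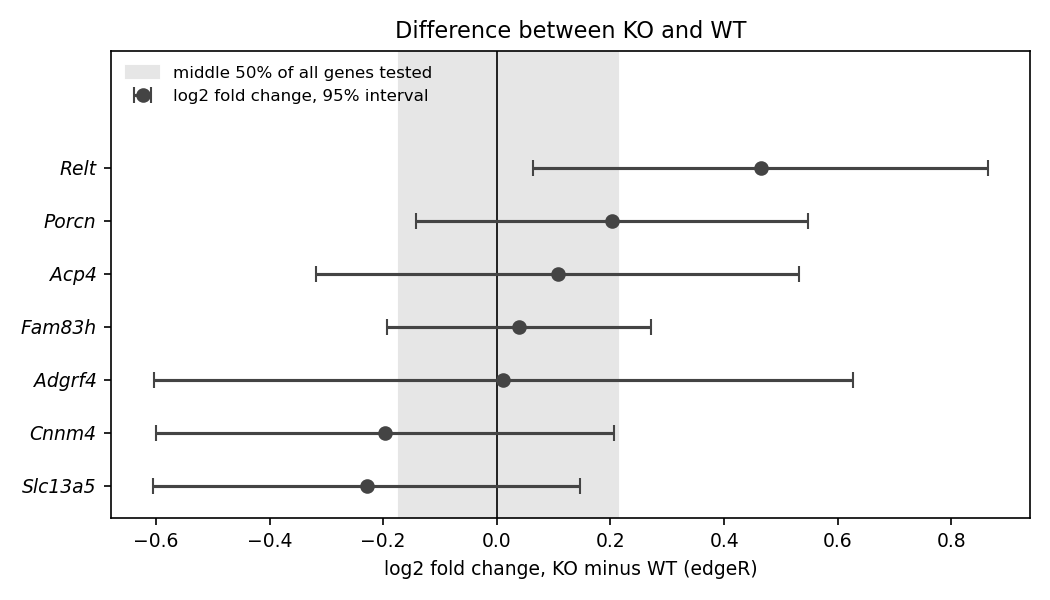
Log2 fold change of the 7 genes, KO minus WT, with 95% intervals (edgeR, 4 libraries per group); the grey band is the middle 50% of all genes tested. The interval of Relt starts at 0.064 and the other 6 intervals include 0.

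The citrate transporter gene had the most reads of the 7. Slc13a5 (ENSMUSG00000020805, GRCm38 chromosome 11, 72241989 to 72267222, minus strand) had 1020, 963, 633 and 701 CPM in WT 2, 3, 4 and 5 and 697, 666, 655 and 812 CPM in KO 1, 3, 4 and 5. WT 2 and WT 3 were the highest libraries, and the 4 KO libraries lay within the range of WT. Mean levels were 829 ± 191 CPM for WT and 707 ± 71.9 CPM for KO, a log2 fold change of -0.23 (SE 0.17, 95% interval -0.61 to 0.15) or 0.853-fold (adjusted p = 0.51 in edgeR). The summed level of oral keratinocyte markers was also highest in WT 2 and WT 3, at 1680 and 1623 CPM. It was 941 and 1494 CPM in WT 4 and WT 5 and 798 to 1031 CPM in KO. Krt6a was its largest part, at 729, 733, 369 and 596 CPM in WT 2 to 5. Among WT libraries, Krt1, Krt4 and Krt13 were highest in WT 4. Krt16, Spink5, Dsg1a and Dsc2 were highest in WT 5, and the other tested genes in WT 2 or WT 3. Of 15 tested genes, 14 were lower in KO. An unadjusted p under 0.05 in edgeR held for 11 (15.7% of all genes) and an adjusted p under 0.05 for 2 (0.0309%). The part of oral keratinocytes in the level of Slc13a5 was not tested.

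In the citrate list (11 genes: the Slc13 family, the mitochondrial carrier, the exporter Ank and enzymes that make or use citrate), 10 genes were tested and 0 passed in edgeR, with a median log2 fold change of 0.093. At an unadjusted p under 0.05, 1 was higher and 0 were lower; over all genes 8.7% were higher and 6.98% lower by that measure. The higher one was Ank, which exports pyrophosphate and citrate. It stood at 60.5 to 66.5 CPM for WT and 77.7 to 85.4 CPM for KO, without overlap (log2 fold change 0.37, SE 0.093, adjusted p = 0.12 in edgeR). DESeq2 and limma voom each called 1 gene of the list higher and none lower, where they called 2.86% and 6.62% of all genes in either direction.

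Cnnm4 (ENSMUSG00000037408, chromosome 1, 36471620 to 36508764, plus strand) had 138, 161, 162 and 95.6 CPM in WT 2 to 5 and 145, 139, 98.8 and 102 CPM in KO 1, 3, 4 and 5. WT 5, KO 4 and KO 5 lay between 95.6 and 102 CPM, the other 5 libraries between 138 and 162 CPM, and the groups overlapped. The means were 139 ± 31.2 and 121 ± 24.1 CPM, with a log2 fold change of -0.20 (SE 0.18, interval -0.60 to 0.21, adjusted p = 0.60 in edgeR). WT 5 and KO 4 also had the lowest summed ameloblast markers, 61430 and 66550 CPM, and the highest odontoblast markers, 23930 and 20690 CPM. KO 5 had 94570 and 10180 CPM. Most of these sums in WT 5 was Ambn and Odam (25070 and 17860 CPM) and Dspp (21240 CPM). Ambn, Odam, Amtn and Klk4 were lowest in WT 5 among WT and in KO 4 among KO. The other ameloblast markers did not show both. Dspp, Dmp1, Nes and Phex were highest in WT 5 among WT and in KO 4 among KO, but Ibsp and Smpd3 were not. The part of these cells in the level of Cnnm4 was not tested.

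Of 20 genes of magnesium transport, 18 were tested and 0 passed in edgeR (median -0.064). DESeq2 and limma voom called 0 (2.86% and 6.62% of all genes). At an unadjusted p under 0.05 in edgeR, 0 were higher and 1 lower (8.7% and 6.98% of all genes). The lower one was Nipal2, a magnesium transporter, at 65.3 to 69.9 CPM for WT and 54.1 to 61.0 CPM for KO (log2 fold change -0.25, SE 0.093, adjusted p = 0.25 in edgeR). The gene of the list with the highest level per length was Trpm7, a channel kinase that admits magnesium, at 2054 ± 139 and 1581 ± 441 CPM. Its libraries did not overlap, at 1935 to 2255 CPM for WT and 988 to 1930 CPM for KO (log2 fold change -0.38, SE 0.20, adjusted p = 0.38 in edgeR).

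Acp4 (ENSMUSG00000012777, chromosome 7, 44252148 to 44257378, minus strand) had 318, 374, 381 and 246 CPM in WT 2 to 5 and 375, 300, 270 and 475 CPM in KO 1, 3, 4 and 5. KO 5 was the highest library and WT 5 the lowest. The means were 330 ± 62.6 and 355 ± 91.2 CPM, with a log2 fold change of 0.11 (SE 0.19, interval -0.32 to 0.53, adjusted p = 0.81 in edgeR). The log2 fold change was -0.064 without KO 5, -0.0095 without WT 5 and -0.16 in limma voom, so its direction was not settled. The strand setting of the counts is not given in the sources used here, and 172 exon bases are shared with 2410002F23Rik on the other strand, which had 17.6% as many reads in all. How many reads of Acp4 lie in the shared bases was not measured, so its count is uncertain. The same limit holds for Slc13a5, which shares 473 exon bases with 1700051A21Rik on the other strand, a gene with 0.046% as many reads.

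Of 7 genes in the acid phosphatase list, which includes Erbb4, 7 were tested and 0 passed in edgeR (median 0.034). At an unadjusted p under 0.05, 0 were higher and 0 lower (8.7% and 6.98% of all genes). DESeq2 and limma voom called 0 (2.86% and 6.62% of all genes). Acp5 had the smallest p, at 108, 74.0, 75.8 and 35.0 CPM for WT and 115, 94.0, 77.1 and 192 CPM for KO (log2 fold change 0.70, SE 0.32, adjusted p = 0.32 in edgeR). KO 5 was the highest library of Acp5 as of Acp4, and WT 5 the lowest. The summed osteoclast markers, of which Acp5 is one, were 182 CPM in WT 5 and 655 CPM in KO 5 and lay at 308 to 471 CPM elsewhere; their part in the level of Acp4 was not tested.

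Of the receptors, Adgrf4 (ENSMUSG00000023918, chromosome 17, 42656891 to 42692284, minus strand) varied most between libraries. It had 206, 333, 638 and 292 CPM in WT 2 to 5 and 407, 429, 335 and 310 CPM in KO 1, 3, 4 and 5. WT 2 was the lowest and WT 4 the highest of the 8 libraries, a ratio of 3.10, with each KO library between them. The SD of log2 CPM was 0.68 in WT and 0.22 in KO, and over the 8 libraries it was 0.47, against a median of 0.23 for 500 genes of like level. The means were 367 ± 188 and 370 ± 56.9 CPM, with a log2 fold change of 0.012 (SE 0.28, adjusted p = 0.99 in edgeR). The 95% interval reached from 0.658-fold to 1.54-fold, and changes within those bounds are not excluded. Without WT 4 the log2 fold change was 0.41 (adjusted p = 0.41 in edgeR), and without WT 2 it was -0.20 (adjusted p = 0.77).

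Relt (ENSMUSG00000008318, chromosome 7, 100845847 to 100863446, minus strand) had 30.4, 34.5, 36.8 and 56.5 CPM in WT 2 to 5 and 48.0, 47.6, 63.8 and 58.6 CPM in KO 1, 3, 4 and 5. The 4 KO libraries lay above 3 of the WT libraries, and WT 5 lay above KO 1 and KO 3. Mean levels were 39.5 ± 11.6 CPM for WT and 54.5 ± 8.04 CPM for KO, a log2 fold change of 0.46 (SE 0.18, interval 0.064 to 0.86) or 1.38-fold (unadjusted p = 0.026, adjusted p = 0.27 in edgeR). A two-sided exact permutation of the 8 libraries gave p = 0.086, and it can give no less than 0.0286. Without WT 5 the log2 fold change was 0.69 (adjusted p = 0.073), and limma voom with quality weights gave 0.64 (adjusted p = 0.022). Without WT 2, WT 3, WT 4, KO 4 or KO 5 it was 0.35, 0.40, 0.42, 0.38 or 0.43, and the unadjusted p in edgeR no longer passed 0.05 in these 5 fits (0.093, 0.074, 0.072, 0.079 and 0.080).

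Markers of other cell types of the molar are given beside Relt. The summed level of pulp mesenchyme markers was 33880, 31130, 33130 and 59290 CPM in WT 2 to 5 and 60480, 53170, 67010 and 45460 CPM in KO 1, 3, 4 and 5. In this sum, WT 5 stood apart from the other WT libraries and KO 4 was the highest library, as for Relt. KO 5 was the lowest KO library for the sum and the second highest for Relt. Most of the sum was Col1a1 and Col1a2, at 19710 and 18560 CPM in KO 5. Gene by gene, KO 5 was the lowest KO library for Col1a1, Col1a2, Pdgfra and Postn. It was the highest KO library for Col3a1, Col6a2, Mfap4, Lum, Dcn and Twist1. The summed odontoblast markers were also highest in WT 5 (23930 CPM) and KO 4 (20690 CPM) and lowest in KO 5 (10180 CPM). All 11 genes of the pulp mesenchyme list were higher in KO by their fitted log2 fold change (median 0.53). Of them, 7 were so at an unadjusted p under 0.05, where 8.7% of all genes were higher, and 0 at an adjusted p under 0.05 in edgeR. This was not particular to pulp. All 7 tested genes of the osteoclast list (median 0.70) and of the nerve and Schwann list (0.62) were higher in KO, as were 9 of 10 for macrophages (0.34). The median was -0.031 for ameloblast, 0.047 for odontoblast and -1.05 for oral keratinocyte markers. The part of any of these cells in the level of Relt was not tested.

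Of 9 genes in the list of the Relt family, the kinases that bind it and related receptors of ectodermal organs, 9 were tested and 0 passed in edgeR (median -0.11). At an unadjusted p under 0.05, 2 were higher, Relt and Tnfrsf19, and 0 lower (8.7% and 6.98% of all genes). DESeq2 called 0 and limma voom 1, which was Relt (2.86% and 6.62% of all genes). Tnfrsf19, a receptor of the same superfamily, stood at 117 to 154 CPM for WT and 163 to 174 CPM for KO, without overlap (log2 fold change 0.31, SE 0.11, adjusted p = 0.25 in edgeR). Rell1 had means of 146 ± 41.0 and 144 ± 13.4 CPM and a log2 fold change of -0.019 (SE 0.18).

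**Figure D3:**
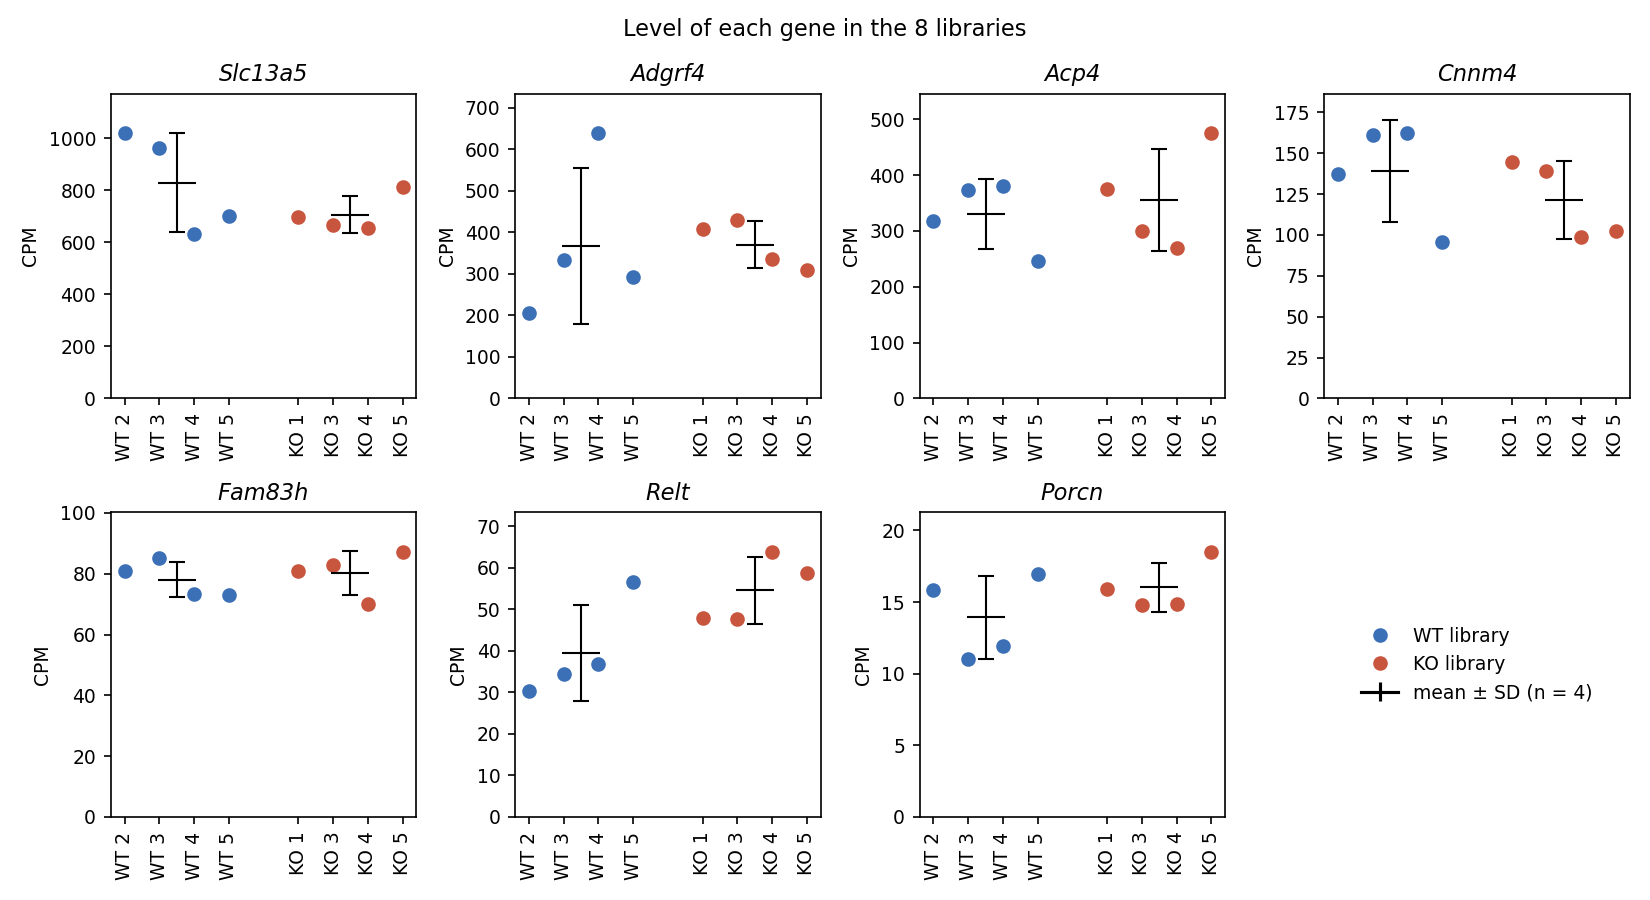
Level in CPM of each of the 7 genes in the 8 libraries (WT blue, KO red; black, mean ± SD, n = 4), each panel with its own axis from 0. WT 4 is the highest point for Adgrf4 at 638 CPM, WT 5 is the highest WT point for Relt at 56.5 CPM, and the groups overlap in every panel.

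Fam83h (ENSMUSG00000046761, chromosome 15, 76001093 to 76014336, minus strand) was the steadiest of the 7 genes. It had 80.8, 85.0, 73.4 and 73.1 CPM in WT 2 to 5 and 80.8, 83.0, 69.98 and 87.2 CPM in KO 1, 3, 4 and 5, and its highest library was 1.25 times its lowest. The SD of log2 CPM over the 8 libraries was 0.12, against a median of 0.19 for 500 genes of like level. The means were 78.1 ± 5.87 and 80.3 ± 7.36 CPM, with a log2 fold change of 0.040 (SE 0.11, adjusted p = 0.88 in edgeR). The 95% interval ran from 0.875-fold to 1.21-fold. K230010J24Rik overlaps the gene on the other strand without shared exon bases and had 9.07% as many reads.

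The list of Fam83 genes and casein kinase 1 genes had 9 of 11 tested and 0 past the threshold in edgeR (median 0.029). At an unadjusted p under 0.05, 2 of the 9 were higher and 2 lower (8.7% and 6.98% of all genes), and 4 had groups that did not overlap (10.9% of all genes). DESeq2 called 0 and limma voom 2 (2.86% and 6.62% of all genes). The smallest p was that of Fam83d, a spindle protein of dividing cells, at 2.91 to 3.32 CPM for WT and 3.82 to 5.36 CPM for KO (log2 fold change 0.62, SE 0.18, adjusted p = 0.17 in edgeR). The other 3 of these 4 genes fall outside the rule for naming and were chosen after their values were seen: Csnk1e, a casein kinase 1, at 0.28, and Fam83a and Fam83b, at -1.27 and -0.69 in log2 fold change, with adjusted p values of 0.21, 0.20 and 0.28. Csnk1a1, the most abundant of the list per length, had a log2 fold change of -0.15 (SE 0.11).

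Porcn (ENSMUSG00000031169, X chromosome, 8193848 to 8206525, minus strand) was the least abundant, with 2362 reads over all libraries. It had 15.8, 11.03, 11.96 and 16.9 CPM in WT 2 to 5 and 15.9, 14.8, 14.9 and 18.5 CPM in KO 1, 3, 4 and 5. WT 3 and WT 4 were the lowest libraries, KO 5 was the highest, and the other 5 lay between 14.8 and 16.9 CPM. The means were 13.9 ± 2.89 and 16.0 ± 1.73 CPM, with a log2 fold change of 0.20 (SE 0.16, interval -0.14 to 0.55, adjusted p = 0.53 in edgeR). Because the gene is X-linked, the Xist and Y-linked values given above belong beside it; Xist was 839 CPM in WT 3 and 251 CPM in WT 4, the libraries with the least Porcn. The part of sex in its level was not tested.

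In the list of Wnt acylation and secretion, 18 of 24 genes were tested, among them 13 Wnt genes, and 0 passed in edgeR (median 0.095). At an unadjusted p under 0.05, 3 were higher and 1 lower (8.7% and 6.98% of all genes). DESeq2 called 1 and limma voom 3 (2.86% and 6.62% of all genes). The smallest p was that of Notum, which removes the fatty acid that PORCN attaches, at 4.32 to 5.20 CPM for WT and 5.87 to 13.8 CPM for KO, without overlap (log2 fold change 1.10, SE 0.23, adjusted p = 0.085 in edgeR). Tmed2, a cargo receptor of secretion and the most abundant of the list per length, had a log2 fold change of 0.068 (SE 0.10).

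Of 29 further genes of enamel defects, 28 were tested and 0 passed in edgeR (median 0.077), with 5 higher and 2 lower at an unadjusted p under 0.05 (8.7% and 6.98% of all genes). In 3 of the 28 the groups did not overlap, a share near the 10.9% of all genes. DESeq2 called 3 of the 28 and limma voom 6, where they called 2.86% and 6.62% of all genes. This list includes Wdr72, the gene knocked out, which had its smallest p (log2 fold change -2.43, SE 0.47, adjusted p = 0.080 in edgeR). Wdr72 is 1 of the 2 lower genes and of the 3 without overlap in edgeR, so the counts of this list are in part fixed by the genotype. Ambn, which encodes the matrix protein ameloblastin and was the most abundant of the list per length, had a log2 fold change of -0.11 (SE 0.25).

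Profiles over the 8 libraries were compared for Adgrf4 and Relt, the genes of the 7 with the largest SD of log2 CPM, by the root mean square difference of log2 CPM centred on each gene's mean, against 11179 protein-coding genes. The nearest to Adgrf4 were Gpr176, Fhdc1 and Stox1, at 0.12, 0.13 and 0.14, where the median gene was at 0.49. Gpr176 had 78.2, 123, 195 and 118 CPM in WT 2 to 5 and 164, 166, 123 and 114 CPM in KO. It too was lowest in WT 2 and highest in WT 4. The nearest to Relt were Fxyd6, Ncmap and Fbln7, at 0.086, 0.088 and 0.095, where the median gene was at 0.41. Fxyd6 had 53.4, 55.9, 62.7 and 93.5 CPM in WT 2 to 5 and 70.4, 70.2, 105 and 95.04 CPM in KO, with WT 5 apart from the other WT libraries and KO 4 highest. These are descriptions over 8 libraries that share their tissue and their groups.

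**Figure D4:**
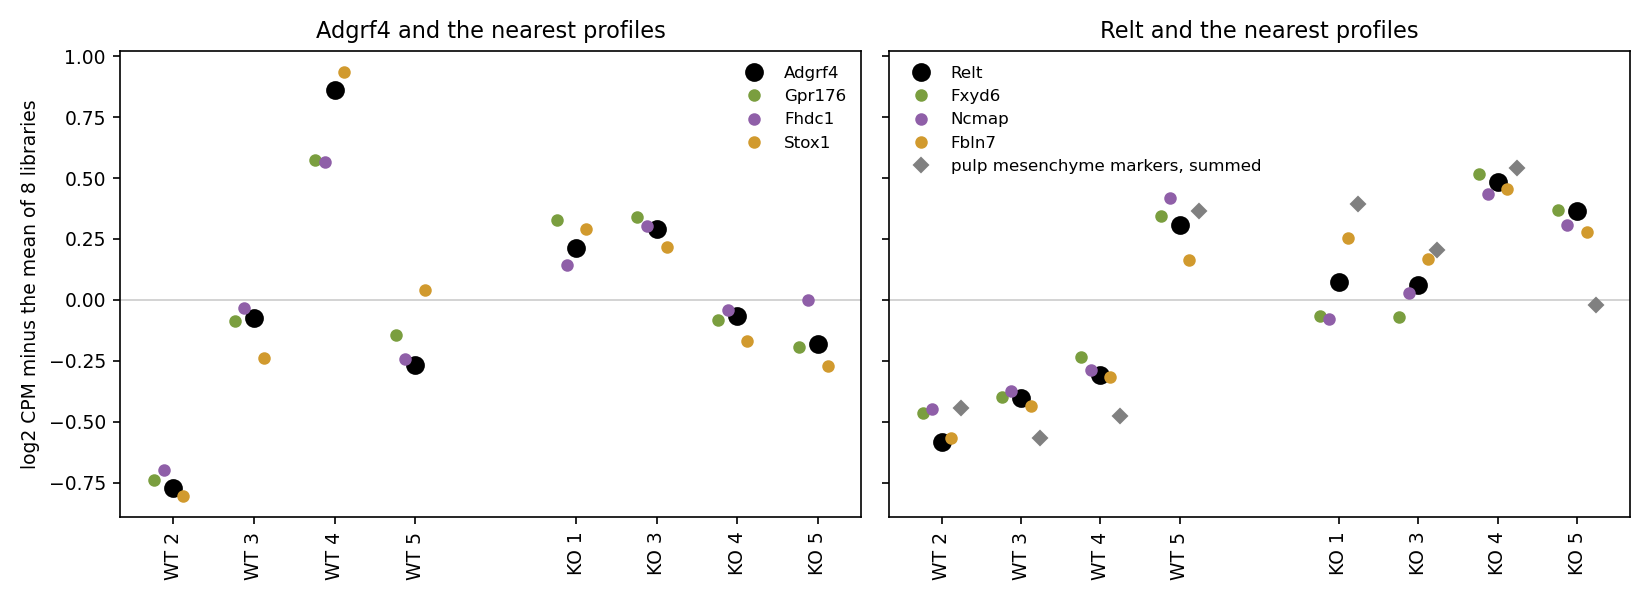
Log2 CPM minus the mean of the 8 libraries for Adgrf4 (left) and Relt (right) in black, with the 3 nearest genes in colour and, on the right, the summed markers of pulp mesenchyme as grey diamonds; points are offset sideways for display. Adgrf4 and its neighbours are lowest in WT 2 and highest in WT 4, and the black and grey points on the right are both higher in WT 5 than in the other WT libraries.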

How the data were processed

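RNA of 4 WT and 4 KO molar samples was polyA-selected, per the labels' protocols. The authors deposited 1 table of raw counts per Ensembl gene, whole numbers, with gene lengths; each length of the 7 genes equals the merged exon length in GENCODE M21. The submitters' processing notes name CASAVA and mm39, but 98.8% of shared gene IDs start where GENCODE M21 (GRCm38) places them, so coordinates are GRCm38. How reads were aligned and counted, and whether by strand, is not given in the sources used here.

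Genes were kept by filterByExpr (minimum count 10, minimum total 15), which left 16205 genes and at least 99.8% of the reads of each library. They were scaled by TMM (factors 0.936 to 1.06) and tested by edgeR 4.0.16 (R 4.3.3; robust quasi-likelihood, no covariate) with Benjamini-Hochberg adjustment over all genes tested. SE was taken as the absolute log2 fold change over the root of the F statistic. CPM were computed here from the deposited counts; log2 CPM used a prior count of 2. The script was tested on simulated data. Alternatives were other scalings and filters, DESeq2 1.42.0, limma 3.58.1 voom, a replicate block and left-out libraries.

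The genes and lists were chosen with earlier results of these data known. Named were the 7 genes, per list the gene with the smallest p and the most abundant per length, the 3 nearest profiles of the 2 most variable genes, and Wdr72. Of list symbols, 1 (Ptp4a1) has 2 rows, and the row with more reads was used. Of the genes named by the rule, 1 is not reported here, nor is the related list for Adgrf4.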

Additional observations from a re-analysis of the deposited data

Results flagged for a closer look

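In groups of 4 libraries, 1 value stood far from the other 3 for 2 of the 26 genes named by the rule, in 52 groups looked at; chance flags about 1 in 20 groups. Ncmap, the second nearest profile to Relt, stood at 19.7 CPM in WT 5 against 10.8 to 12.1 CPM in the other WT libraries. Ambn, which encodes ameloblastin, stood at 27390 CPM in KO 4 against 38160 to 38790 CPM in the other KO libraries. None of the 7 genes of enamel defects was among them.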

How the results depend on the processing

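Over 18 alternatives, 126 values were computed for the 7 genes: 107 kept their direction and side of the threshold, 18 changed sign without passing it and 1 newly passed, Relt with voom (log2 fold change 0.64, adjusted p = 0.022); KO 5 had the lowest voom weight, 0.157. The direction of Slc13a5, Cnnm4, Porcn and Relt held in each alternative, but their size moved: with each library left out in turn, log2 fold changes ran from -0.35 (without WT 4) to -0.12 (WT 2) for Slc13a5, from -0.34 (WT 5) to -0.11 (KO 4) for Cnnm4, from 0.10 (WT 3) to 0.31 (WT 5) for Porcn and from 0.35 (WT 2) to 0.69 (WT 5) for Relt. They ran from -0.20 to 0.41 for Adgrf4, from -0.0028 to 0.10 for Fam83h and from -0.064 to 0.22 for Acp4. Adgrf4 stood at -0.0018 with DESeq2 size factors, -0.0017 with DESeq2 and -0.017 with library totals, where the median of all genes moved by -0.012, -0.012 and -0.048. In these 3 changes of sign, and in that of Fam83h to -0.012 with library totals, the reported value (0.012 and 0.040) is smaller than the movement of all genes, so they say nothing about either gene. Fam83h stood at -0.081 with voom and -0.033 without KO 1 and KO 5, and Acp4 at -0.16 with voom and -0.21 without KO 1 and KO 5. Voom called 1 of the 7 genes at an adjusted p of 0.05 and 2 at an unadjusted p of 0.05; without KO 1 and KO 5 the latter count was 0, and with single libraries left out it was 0 to 1. The number of all genes past the threshold was 5, and it was 2 with library totals, 241 with no low-count filter, 464 with DESeq2, 1073 with voom, 11 without KO 1 and KO 5, and 0 to 55 with single libraries left out. No scaling moved the median of all genes by over 0.1. Same-numbered libraries had correlations of deviations of -0.14, -0.092 and -0.12, within the -0.235 to 0.274 of differently numbered ones. They show no sign of pairing by number, but so few pairs cannot exclude it. On the 6 libraries with shared numbers a replicate block gave -0.16 for Adgrf4, 0 of the 7 genes at an unadjusted p of 0.05 and 1 gene overall; without the block these were -0.23, 0 and 1. The intervals, up to 0.62 on either side for Adgrf4, set what 4 libraries per group could show.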
